A study of Xerophyta schlechteri with 51 samples.

Results

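The last drying step of surviving leaf tissue was examined in Xerophyta schlechteri, a resurrection plant whose leaf blades lose almost all their water and recover on rewatering. The 6 libraries are non-senescent tissue (NST) at <10% relative water content (RWC, the leaf's water relative to a fully hydrated leaf) and NST at 35% RWC, with 3 libraries each, out of 51 in the series. They were chosen by their labelled stage and tissue. The wider series follows NST and senescent tissue (ST) from full turgor, and pre-senescent tissue (PST) from 75% RWC, through 55%, 35% and <10% RWC to 48 h after rehydration, in 17 groups of 3. The extraction protocol gives the dry leaves as 5% RWC, while the sample labels give <10%. All groups are leaf blades, the labels name no genotype, and drying and rewatering are the only treatment they name. The label for water content names the NST, so the stage of a PST or ST library is that of the NST. Gene names are not given for the IDs in the table, and the tissue labels could not be checked against marker genes. Nothing in the labels says which libraries came from separate plants. The p-values therefore measure only the spread between libraries, which may be technical. In the tests of single genes that spread was estimated over all 51.

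Resurrection plants dry in phases. Growth and photosynthesis are shut down early, and protectants such as late embryogenesis abundant proteins, small heat shock proteins, antioxidants and sucrose build up as water is lost. In the driest phase the cytoplasm becomes so viscous that metabolism nearly stops, and transcripts present at that point can persist in the dry leaf. Leaf tissue that fails on drying instead enters senescence, in which chlorophyll, proteins and lipids are broken down and their nutrients exported. The comparison asks whether transcript levels in surviving tissue still changed below 35% RWC.

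Values were taken as FPKM (fragments counted on a transcript, divided by its length and by the library's mapped fragments). The summed FPKM of the 6 libraries ran from 741878 to 952183, and 14085 to 14390 genes reached at least 1 FPKM, within the 13775 to 16157 of the series. At <10% RWC 14357 ± 45.4 genes reached 1 FPKM and at 35% RWC 14217 ± 140 (SD, n = 3 each), which did not separate the stages in a two-sided exact permutation test (p = 0.2, where 0.1 is the smallest that 3 against 3 allows). The 10 highest entries held 18.4% ± 2.91 of the summed FPKM at <10% RWC and 16.9% ± 2.41 at 35% RWC (SD, n = 3 each; two-sided exact permutation p = 0.6). Fragment counts were not used here, and absolute depth is unknown. Low FPKM values were taken to rise in steps of a single fragment, which was not tested. The commonest ratio of low values between each pair of libraries gave relative depths (fragments behind 1 unit of FPKM). These were 0.829 to 0.997 in 5 libraries and 1.73 in NST at 35% RWC replicate 2. Of the 15 library pairs, 13 met the fitted depths within 0.05 on the log2 scale. Replicate numbers 0, 1 and 2 are those of the deposited columns.

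The 6 libraries did not group by stage. The root mean square difference between libraries, over 18717 genes on the log2(FPKM + 1) scale, ran from 0.61 to 0.89 among the 6 pairs within a stage (median 0.82) and from 0.37 to 0.97 among the 9 pairs between stages (median 0.81). The closest pair lay across the stages. NST at 35% RWC replicate 0 and NST at <10% RWC replicate 1 differed by 0.37, and each was the other's nearest library of all 51. The same held for NST at 35% RWC replicate 1 and NST at <10% RWC replicate 2, at 0.41. Whether such a pair came from 1 plant was not tested, and the comparison of the stages treats all 6 libraries as unpaired. Over the 1187 genes with a mean of at least 100 FPKM these pairs differed by 0.36 and 0.48, where pairs within a stage differed by 0.81 to 1.22. NST at <10% RWC replicate 0 was nearest to dry PST replicate 0 (0.46), and NST at 35% RWC replicate 2 to ST at 35% RWC replicate 2 (0.52). NST at 35% RWC replicate 2 and NST at <10% RWC replicate 0 stood apart, at 0.81 or more and at 0.78 or more from each of the other 5 libraries. The former had the highest relative depth, 1.73, and the latter 0.913. The part of depth in these distances was not tested.

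**Figure D1:**
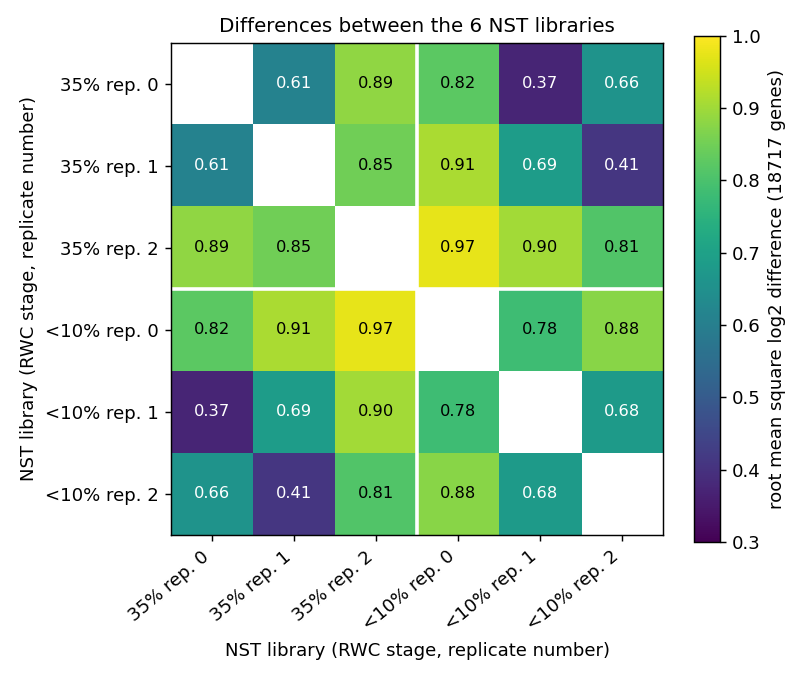
Root mean square log2 difference between each pair of the 6 NST libraries over 18717 genes; rows and columns are libraries named by stage and replicate number, and white lines divide the stages. The 2 smallest differences, 0.37 and 0.41, lie between stages, while pairs within a stage lie between 0.61 and 0.89.

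Very few differences between 35% and <10% RWC passed the test. Of 18717 genes tested, 2 were higher and 0 lower at <10% RWC (limma, adjusted p under 0.05), which is 0.0107% of the genes. At an unadjusted p under 0.05 there were 214 higher and 153 lower genes, 1.96% in all. That is below the share of 0.05 which this threshold gives on average where no gene changes. Few calls therefore do not by themselves show that little changed. The part of the close pairs of libraries across the stages in this was not tested. The median change over all genes was 0, the median absolute change was 0.20 on the log2 scale, and 95% of changes were under 0.81 in size. A change of at least 1 on the log2 scale was seen in 376 genes that were higher (2.01%) and 156 that were lower (0.833%), but only the 2 called genes among these passed the test. The libraries of the stages did not overlap in 624 genes that were higher (3.33%) and 571 that were lower (3.05%), 6.38% of the genes in all. With 3 against 3 libraries, a share of 0.1 separates in this way on average where no gene changes, ties aside. The share seen is below that. The root mean square change was 0.40, below the root mean square standard error of 0.48.

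The calls of these 2 genes were lost in some settings, while their log2 changes stayed positive in each of the 13 settings that tested them. Limma called 0 genes with a pseudocount of 0.1 FPKM (440 at an unadjusted p under 0.05) and when the fit held the compared groups alone (441). A filter of 5 FPKM also left 0 calls (256), but it takes both genes out before the test and so does not bear on them. It also called 0 genes when NST at 35% RWC lost replicate 0 (621) or replicate 2 (220), and when NST at <10% RWC lost replicate 2 (680). Without NST at <10% RWC replicate 1 the count was 1. With library weights, or with no filter on low values, 4 genes were called, all of them higher at <10% RWC.

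**Figure D2:**
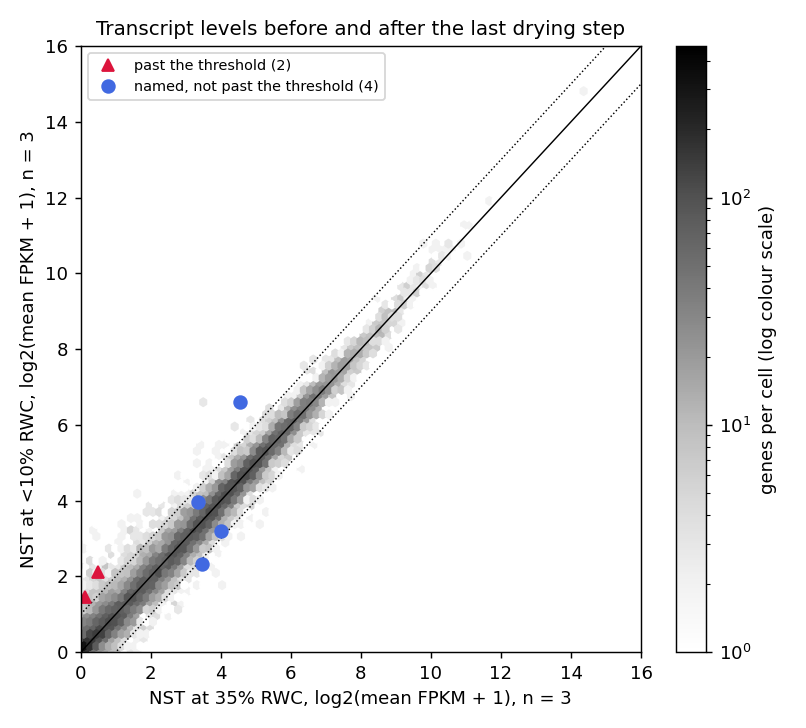
Mean level of each gene in NST at 35% RWC (x axis) and at <10% RWC (y axis), both as log2(mean FPKM + 1) with n = 3 libraries; grey cells count genes, the solid line marks equal levels and dotted lines a difference of 1. Genes lie along the line of equal levels, and the 2 called genes (triangles) sit at the low end of the range.

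The intervals give how much change the fit of all 51 libraries still allows. The 95% confidence interval of the log2 change lay wholly within -1 and 1 for 9760 genes (52.1%) and within -2 and 2 for 91.9%. Its half-width had a median of 0.75. For the other 1514 genes these intervals did not bound a change of 2 or more on the log2 scale, in one direction or the other. The width of the intervals comes from the spread over all 51 libraries and not from the NST stages alone. Of the 2389 genes with a mean under 1 FPKM over all libraries, whose values the added 1 FPKM compresses most, 73.8% lay within -1 and 1. Among the 7366 genes between 1 and 10 FPKM it was 46.2%. Among the 7775 genes with a mean between 10 and 100 FPKM over all libraries, 54.4% lay within -1 and 1, with a root mean square change of 0.41. Among the 1110 genes between 100 and 1000 FPKM it was 33.2%, and among the 77 genes at 1000 FPKM or more 1.3%, where the intervals were widest (median half-width 1.52). This class was set by the mean over all libraries, dried ones included, which favours genes that rise on drying. The values of its steps are therefore not free of that choice. These 77 most abundant transcripts had a root mean square change of 0.56 in the last step, against 4.80 from full turgor to 75% RWC. Their root mean square standard error was 0.82, and none of the 1187 genes at 100 FPKM or more was called (6 at an unadjusted p under 0.05).

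Set beside the earlier steps of drying in NST, the last step had the smallest root mean square change. From full turgor to 75% RWC it was 1.32, with 2023 genes higher and 3027 lower (27% of the genes). From 75% to 55% RWC it was 0.51, with 0 genes higher and 1 lower (0.00534%), and 1012 genes at an unadjusted p under 0.05. From 55% to 35% RWC it was 0.79, with 814 higher and 726 lower (8.23%). With library weights the 3 earlier steps had 7637, 1855 and 3478 called genes in order, and the last step 4. The step from 55% to 35% RWC shares its 35% libraries with the last step, so only the values of each are given, and the difference between steps was not tested. The root mean square change has no test of its own. Within groups the libraries spread unequally, with a root mean square SD of 0.48 at full turgor, 0.71 at 75% and 0.61 at 55% RWC. It was 0.56 at 35% and 0.55 at <10% RWC (n = 3 each), and its part in the ranking of the steps was not tested. The 1540 genes called between 55% and 35% RWC rested on few libraries. They were 64 without NST at 55% RWC replicate 2 and 948 without its replicate 0. Dropping replicate 1 or replicate 2 of NST at 35% RWC left 248 or 961, and a fit of the compared groups alone left 1. Quantile normalization moved the higher share of this step from 52.9% to 63.7%. The single gene called between 75% and 55% RWC was Xvis03_219852, listed at 0 in all 3 libraries at 55% RWC and at 2192.79 to 15560.1 FPKM at 75% RWC. Leaving out genes listed at 0 throughout a compared group left 0 calls there. The count became 117 or 25 genes when NST at 75% RWC lost replicate 2 or replicate 1, and 2 genes when NST at 55% RWC lost replicate 2.

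**Figure D3:**
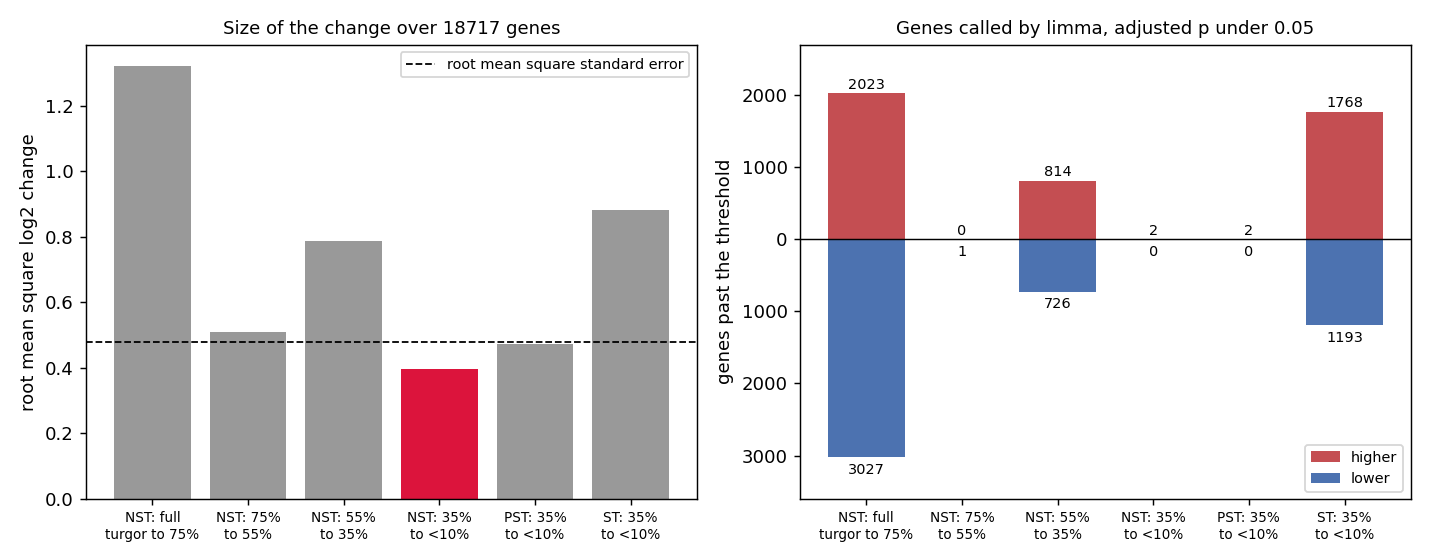
Left, root mean square log2 change over 18717 genes in each drying step (bars). The dashed line is the root mean square standard error of 0.48, estimated over all groups together and not per step. Right, genes called higher (above 0) and lower (below 0) by limma in the same steps. In NST the step from 35% to <10% RWC (red bar) had a change of 0.40 and 2 called genes.

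Genes already changed by 55% RWC stood in the dry leaf close to where they stood at 35% RWC. From full turgor to 55% RWC 2910 genes were called higher and 4141 lower (37.7%), and those changed by at least 1 on the log2 scale were followed through the last step. These lists were chosen on the libraries at full turgor and 55% RWC, which the last step does not use. The 2263 genes risen by 55% RWC (12.1% of the tested genes) had a median log2 change of 0.09 in the last step, and all genes had a median of 0. Of the risen genes 61.6% were higher at <10% than at 35% RWC, against 50% of all genes, and 0 were called. At an unadjusted p under 0.05, 25 were higher (1.1%) and 5 lower, where all genes gave 1.14% and 0.817%. The 3294 genes fallen by 55% RWC had a median of -0.03 in the last step, and 0 were called. Of the fallen genes 1384 (42%) were higher and 1839 lower at <10% than at 35% RWC, where 50% of all genes were higher. At an unadjusted p under 0.05, 21 of the fallen genes were higher (0.638%) and 17 lower (0.516%).

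Against NST at full turgor, the median level of the risen genes was 2.03, 1.83 and 1.72 in replicates 0, 1 and 2 at 35% RWC and 2.05, 2.02 and 1.75 at <10% RWC. The stages overlapped. The fallen genes had medians of -2.08, -2.03 and -1.99 in the libraries at 35% RWC, against -2.15, -2.09 and -2.08 in the dry ones. Here too the stages overlapped, since replicate 0 at 35% RWC lay just below replicate 2 at <10% RWC. After 48 h of rehydration the risen genes stood at 0.10 ± 0.12 and the fallen genes at -0.18 ± 0.10 (SD, n = 3 each). After quantile normalization the median change of the risen genes was 0.04. Dropping replicate 0 at 35% RWC or replicate 2 at <10% RWC made it 0.17. Dropping replicate 2 at 35% RWC made it 0.03, and dropping replicate 0 or 1 at <10% RWC made it 0.06 or 0.04. That of the fallen genes ran from -0.05 to 0 over the libraries left out.

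**Figure D4:**
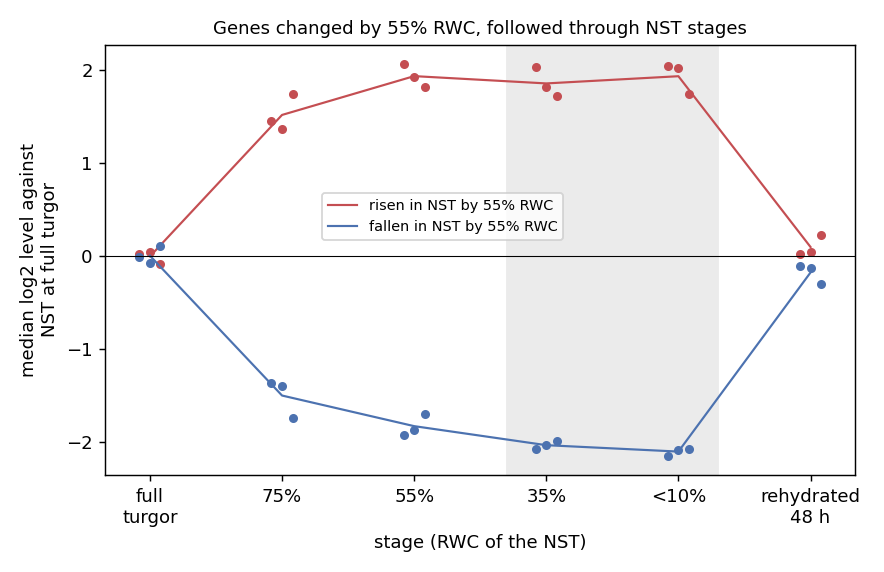
Median log2 level, against the mean of NST at full turgor, of the 2263 genes risen (red) and 3294 fallen (blue) by 55% RWC in each NST library; points are libraries and lines join group means, with the last drying step shaded. Risen genes stood at 1.86 ± 0.16 at 35% and 1.94 ± 0.17 at <10% RWC, and fallen genes at -2.04 ± 0.04 and -2.11 ± 0.04 (SD, n = 3 each).

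Genes are given by ID, and no function can be stated for them. The 2 called genes, named here after their values were seen, were low in both stages. Xvis03_207854 was listed at 0, 0.3 and 0 FPKM in replicates 0, 1 and 2 at 35% RWC and at 1.75, 1.63 and 1.86 FPKM at <10% RWC. All 3 dry libraries were above all libraries at 35% RWC. It was listed at 0 in every NST library at full turgor, 75% and 55% RWC and after rehydration. The log2 change was 1.33 with a standard error of 0.24 and a 95% interval from 0.85 to 1.81 (limma, adjusted p = 0.0191). The call held in 6 of 13 alternative settings, with adjusted p-values from limma between 0.00773 and 1. The log2 change lay between 1.26 and 1.49 in 12 of these and was 3.54 with a pseudocount of 0.1 FPKM. No fold is given against a stage listed at 0, since a 0 among FPKM values may stand for an estimate that failed.

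The second called gene was entry 4 of the 5 entries with the ID Xvis03_225292, which may share reads. It stood at 0.22, 0.59 and 0.43 FPKM at 35% RWC and at 3.31, 2.25 and 4.46 FPKM at <10% RWC. The stages did not overlap, and the earlier NST libraries, from full turgor to 55% RWC, stood between 0.24 and 0.5 FPKM. The log2 change was 1.60 with a standard error of 0.26 and a 95% interval from 1.07 to 2.12 (limma, adjusted p = 0.00662). It was called in 8 of 13 alternative settings, with adjusted p-values from limma between 0.00124 and 1. The log2 change lay between 1.41 and 1.79 in 12 of these and was 2.76 with a pseudocount of 0.1 FPKM. After rehydration it was listed at 0, 0 and 0.2 FPKM. The 3 other entries of the ID were tested and none was called. Entry 3, the highest, had a mean of 14 FPKM at 35% RWC and 10.5 at <10% RWC, entry 2 had 2.43 and 2.79, and entry 5 had 3.69 and 3.47.

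At 10 FPKM or more no gene passed the test, and the rule for named genes then gave those with the smallest unadjusted p whose stages did not overlap. These have the extreme values of the comparison by choice. On the higher side, Xvis03_218494 stood at 10.15, 10.47 and 6.76 FPKM at 35% RWC and at 16.67, 13.98 and 13.24 FPKM at <10% RWC. The log2 change was 0.64 (standard error 0.19) and did not pass the test (limma, adjusted p = 1). Its level at <10% RWC, 14.6 ± 1.81 FPKM, stood beside 15.5 ± 0.66 at 55% RWC and 15.4 ± 1.7 at full turgor (SD, n = 3 each). Replicate 2 at 35% RWC held its lowest NST value, and the rehydrated libraries, from 9.24 to 12.81 FPKM, overlapped the others at 35% RWC.

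Xvis03_203329 stood at 25.62, 30.85 and 10.84 FPKM at 35% RWC and at 196.96, 55.78 and 37.24 FPKM at <10% RWC. Replicate 0 at <10% RWC was far above the rest. The log2 change was 1.81 (standard error 0.57) and did not pass the test (limma, adjusted p = 1). It was 1.11 without that library. This gene also ranged from 31.69 to 76.88 FPKM at 55% RWC, which overlaps the dry libraries, and after rehydration it stood at 1.4 ± 0.82 FPKM (SD, n = 3).

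On the lower side, Xvis03_215202 stood at 13.67, 13.17 and 18.5 FPKM at 35% RWC and at 4.88, 10.55 and 9.31 FPKM at <10% RWC. The log2 change was -0.84 (standard error 0.22) and did not pass the test (limma, adjusted p = 1). The 3 dry libraries held the lowest NST values of this gene, which stood between 11.01 and 17.71 FPKM from full turgor to 55% RWC and at 15.9 ± 1.98 FPKM after rehydration (SD, n = 3). Without NST at <10% RWC replicate 0 the change was -0.55.

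Xvis03_215894 stood at 7.32, 8.95 and 14.08 FPKM at 35% RWC and at 3.18, 4.5 and 4.4 FPKM at <10% RWC. The log2 change was -1.11 (standard error 0.32) and did not pass the test (limma, adjusted p = 1). It was 15 ± 0.35 FPKM at full turgor and 40.9 ± 19.5 FPKM after rehydration, the highest of the NST stages (SD, n = 3 each). At 75% RWC it ran from 4.39 to 9.52 FPKM, which overlaps the dry libraries.

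**Figure D5:**
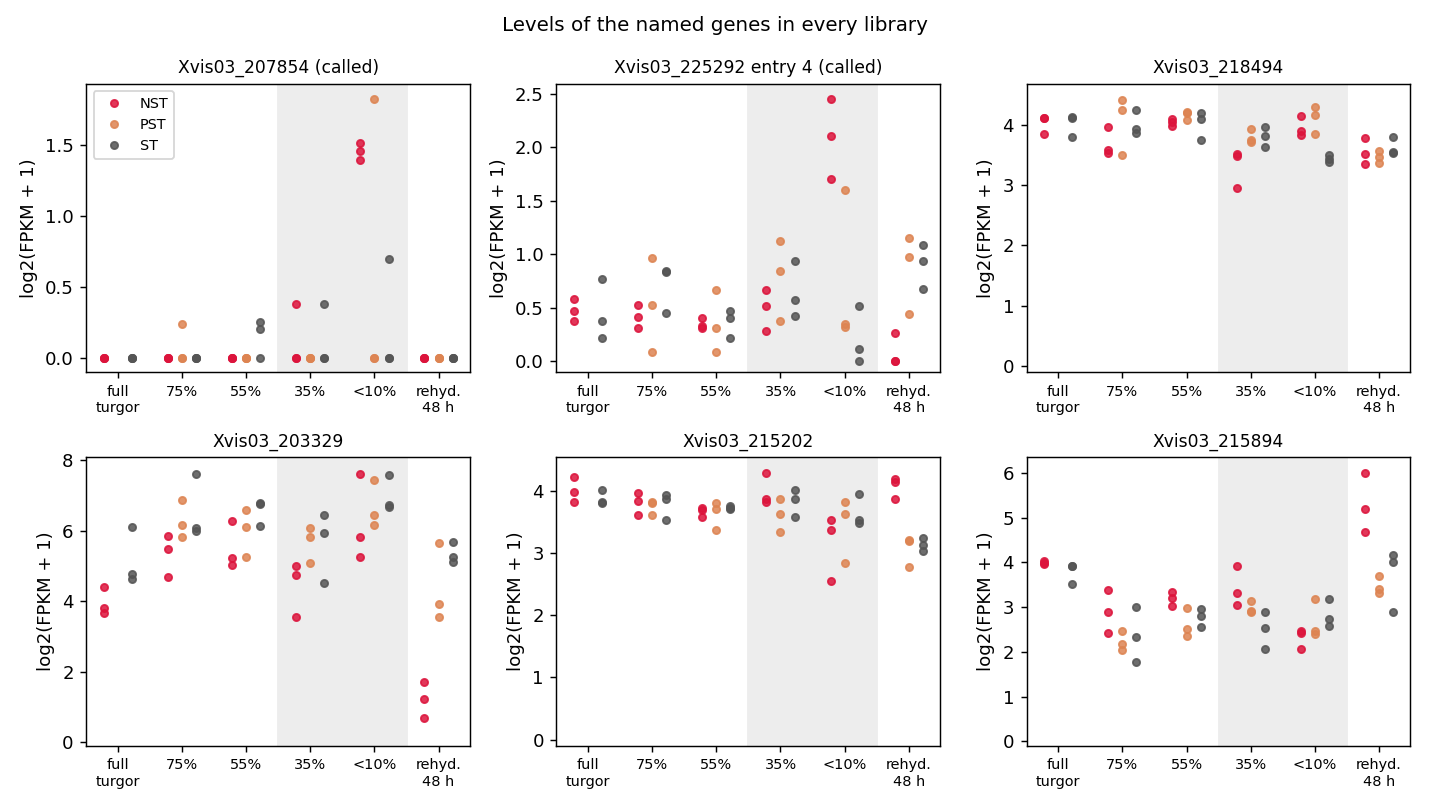
Level of the 2 called and 4 other named genes in every library, as log2(FPKM + 1), by stage (x axis, with 35% and <10% RWC shaded) and tissue (colour); each point is 1 library. The called genes Xvis03_207854 and Xvis03_225292 (entry 4) are at or near 0 in NST before <10% RWC, while the stages do not overlap in the other 4 genes either but none of these passed the test.

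The same step in the other tissues was set beside NST, in libraries the NST comparison does not use. In PST the root mean square change was 0.47. Limma called 2 genes higher and 0 lower in PST (0.0107%), with 579 at an unadjusted p under 0.05. These were the neighbouring IDs Xvis03_219851 and Xvis03_219852, and both were listed at 0 in all 3 PST libraries at 35% RWC. Xvis03_219852 stood at 18060, 10509 and 6434.69 FPKM in NST at 35% RWC and at 13775, 13188.5 and 8460.79 FPKM in NST at <10% RWC, where the stages overlapped. Leaving out genes listed at 0 throughout a compared group, a setting chosen after such genes were seen, gave 0 genes for PST (567 at an unadjusted p under 0.05). Without any 1 of the PST libraries other than <10% RWC replicate 2, the PST count was 1.

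The 2 genes called in NST were also followed in PST. Xvis03_207854 was listed at 0 in all PST libraries at 35% RWC and at 0, 0 and 2.54 FPKM at <10% RWC. Entry 4 of Xvis03_225292 stood at 0.3, 1.18 and 0.79 FPKM and then at 0.25, 0.27 and 2.03 FPKM. In each case replicate 2 of dry PST was far above the other dry PST libraries. Neither gene differed in its change between PST and NST past the threshold (limma, adjusted p = 1 and adjusted p = 0.738). This test and the intervals that follow treat the libraries as unpaired. The difference, PST minus NST, was -0.72 with a 95% interval from -1.40 to -0.04 for Xvis03_207854. For Xvis03_225292 (entry 4) it was -1.62, with an interval from -2.36 to -0.88. The NST changes by which both genes were called are part of these differences, so the intervals are not free of that choice.

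In ST far more genes passed the test in this step. Dry ST had 1768 genes above and 1193 below their level in ST at 35% RWC (15.8%), with a root mean square change of 0.88. The total of 2961 was 931 without dry ST replicate 0, 1683 without ST at 35% RWC replicate 2 and 2 when the fit held the compared groups alone (4333 at an unadjusted p under 0.05). The higher share was 59.7%, and 47.7% after quantile normalization. The difference between the tissues was tested directly. Limma called 65 genes that changed more upward in ST and 108 more downward (0.924%). This balance was not stable, with 17 and 136 genes at a pseudocount of 0.1 FPKM, 44 and 50 after quantile normalization, 48 and 38 when ST at 35% RWC lost replicate 1, and 90 and 57 when dry ST lost replicate 2. The 65 genes had a median change of 2.09 in ST and 0.03 in NST, and the 108 genes of -1.67 and 0.06, values that were part of the test that chose them. Of the 65 genes, 14 were listed at 0 throughout a compared group, and of the 108, 1.

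Libraries of 1 number deviated together between the tissues of a stage. With the stage and number as a block the difference between ST and NST took in 1391 genes more upward and 1137 more downward, 2528 in place of 173. A fit of the compared groups alone gave 2. Dropping replicate 0 or 2 of NST at 35% RWC gave 46 or 84, and dropping the same numbers of dry NST gave 94 or 22. Dropping replicate 0, 1 or 2 of ST at 35% RWC gave 58, 86 or 82, and dropping replicate 0 or 1 of dry ST gave 25 or 637. Between PST and NST 1 gene differed (0.00534%), the Xvis03_219852 that was listed at 0 in PST at 35% RWC, and the count with the block was also 1. Without genes listed at 0 throughout a compared group it was 0 (66 at an unadjusted p under 0.05). A count this low does not show that PST and NST changed alike.

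Genes that changed in the last step of ST leaned the same way in NST. The lists were chosen by the ST change itself, so a smaller median in NST follows in part from that choice. The 1407 genes that were at least 1 higher in dry ST and called there (7.52% of the genes) had a median change of 1.68 in ST and of 0.29 in NST, and 82.4% were higher in dry NST than in NST at 35% RWC. At an unadjusted p under 0.05, 51 of them were higher (3.62%) and 1 lower in NST, against 1.14% and 0.817% of all genes, and 0 were called. Their median in single NST libraries, against the mean of NST at 35% RWC, was 0.18, -0.10 and -0.05 in replicates 0, 1 and 2 at 35% RWC and 0.54, 0.37 and -0.07 at <10% RWC. The stages overlapped, because dry replicate 2 lay with the libraries at 35% RWC. The median change was 0.14 without NST at <10% RWC replicate 0 and 0.45 without its replicate 2. The 791 genes lower in dry ST (4.23%) had a median of -1.33 in ST and -0.09 in NST. Of these genes 32.9% were higher in dry NST than in NST at 35% RWC, against 50% of all genes. At an unadjusted p under 0.05, 2 of them were higher (0.253%) and 14 lower (1.77%), against 1.14% and 0.817% of all genes. In NST libraries the 791 genes stood at -0.14, 0.10 and 0.06 at 35% RWC and at -0.14, -0.24 and 0.09 at <10% RWC, again with overlap. Their median change ran from -0.18 to -0.01 over the libraries left out. Since libraries of 1 number deviated together in ST and NST, these lists are not independent of the NST libraries, and the part of this in the shared lean was not tested.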

How the data were processed

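Leaf blade RNA was sequenced by the submitters, and the authors deposited 1 table with a column for each library. The deposited values were taken as FPKM from the tools named and from the values themselves, since the table does not name its unit. The submitters' processing notes name Bowtie2, TopHat and Cuffdiff, and the series design text names the species' own genome as the reference. For tool versions, settings and build the sources used here give nothing. The table has 21815 entries with 21282 different IDs. Entries that share an ID were kept apart. Columns were assigned to groups by name. Genes with at least 1 FPKM in at least 3 libraries were tested (18717, with 3098 left out) on log2(FPKM + 1), which understates the change of weakly expressed genes. All 51 libraries entered a single limma fit (version 3.58.1, R 4.3.3) of group means with a variance trend, leaving 34 residual degrees of freedom. The Benjamini-Hochberg adjustment ran over all genes tested in each comparison, and p-values are two-sided.

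Named genes are those past the threshold without overlap between stages and with a mean of at least 10 FPKM in the higher group, 2 per direction, filled by the smallest unadjusted p where too few passed. Other genes are named because a count of 1 or 2 consists of them. Lists of changed genes need an adjusted p under 0.05 and a log2 change of at least 1. The comparison and the lists were chosen with earlier results of these data known. Alternatives were another pseudocount, 2 other filters, quantile normalization, only the compared groups, a replicate block, library weights and leaving out each library. Same-numbered libraries of NST and ST correlated in their deviations from the group mean (0.39 to 0.54 at <10% RWC and 0.54 to 0.71 at 35% RWC), as did those of NST and PST (0.63 to 0.77 and 0.58 to 0.72), so numbers were taken to pair tissues within a stage; this pairing comes from the data, not the labels. A block within stages and leaving out genes listed at 0 throughout a group were added after seeing the data. No sequences were used.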

Additional observations from a re-analysis of the deposited data

Results flagged for a closer look

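The difference between ST and NST in the last drying step, tested as such in limma, took in 173 genes. This count was 2 with only the compared groups and 2528 with the block within stages. One of the genes called in the NST step was among the 173. For entry 4 of Xvis03_225292 the change in ST minus that in NST was -2.03, with a 95% interval from -2.77 to -1.29 (limma, adjusted p = 0.00545). The NST change of 1.60, by which this entry was called, is part of that difference. In ST alone the change was -0.43, with a 95% interval from -0.96 to 0.09 (limma, adjusted p = 0.27). Entry 4 stood at 0.49, 0.34 and 0.91 FPKM in ST at 35% RWC and at 0, 0.08 and 0.43 FPKM in dry ST. No library of dry ST reached the lowest of dry NST, 2.25 FPKM.

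The difference between PST and NST was past the threshold in 1 gene. For Xvis03_219852 the change in PST minus that in NST was 13.7 on the log2 scale (limma, adjusted p = 5.39e-13). The size is set by a group listed at 0 and by the pseudocount, and is not a fold. It was listed at 0 in all 3 libraries of PST at 35% RWC, PST at 55%, NST at 55%, ST at 55% and dry ST, and stood between 2192.79 and 18716.3 FPKM in the libraries of NST, PST and ST at 75%, NST and ST at 35%, and dry NST and PST. The neighbouring ID Xvis03_219851 was listed at 0 in the same groups and also in all of PST at 75%. Such runs of 0 can be failed estimates, which was not tested.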

How the results depend on the processing

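The count of 2 genes in the NST step was 0 with a pseudocount of 0.1, a filter of 5 FPKM (which removes both genes) or only the compared groups, 4 with no filter or library weights, and 0 to 2 over the 6 libraries left out. A replicate block, which joins libraries by number over all stages, gave 2 and could not take out the close pairs of unlike number. Numbers did not pair NST libraries across the stages (correlations of same-number deviations from -0.25 to -0.01, with 0 of 3 libraries closest to their own number). For ST the total of 2961 was 2 with only the compared groups and 931 to 3247 over libraries left out. For PST the total of 2 was 1 with a filter of 5 FPKM or only the compared groups, 0 without genes listed at 0 in a compared group and 1 to 2 over libraries left out. For ST minus NST the 173 genes became 94 with quantile normalization, 2 with only the compared groups, 546 with library weights, 2528 with the block within stages and 22 to 637 over libraries left out. For PST minus NST the 1 gene became 0 without genes listed at 0 in a compared group and 1 to 3 over libraries left out. Library weights gave 7637, 1855 and 3478 genes for the earlier NST steps in order. The step from 75% to 55% RWC gave 3 with no filter, 0 without genes listed at 0 and 1 to 117 over libraries left out, and that from 55% to 35% RWC 1 with only the compared groups and 64 to 1729 over libraries left out. The median of the fallen genes was -0.0801 with a pseudocount of 0.1. The gain of 139.7 genes at 1 FPKM or more was 31.7 at 5 FPKM and 73.7 to 213 over libraries left out. The replicate block moved no total of called genes by over 1.5 times, but the 65 genes more upward in ST became 111, and the 579 PST genes at an unadjusted p under 0.05 became 875. The causes were not tested. With 3 libraries a group, the intervals of the NST step were widest among genes at 1000 FPKM or more (median half-width 1.52). Absolute depth is unknown, and its part in the precision of low values was not tested.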

Other observations

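Genes that differed from full turgor after 48 h of rehydration were followed back into the last drying step, a question chosen after seeing the data. The libraries at full turgor and after rehydration, which chose these lists, are not used in the last step. The 1287 genes at least 1 higher in rehydrated NST had a median change of -0.06 from 35% to <10% RWC, and 36.6% of them were higher in the dry leaf, against 50% of all genes. Their medians against the mean of NST at 35% RWC were -0.05, -0.07 and -0.09 in the dry libraries and -0.02, -0.01 and 0.02 at 35% RWC. The 1114 genes at least 1 lower in rehydrated NST had a median change of 0.06, with medians of 0.06, 0.07 and 0.03 in the dry libraries and 0.03, 0 and -0.04 at 35% RWC. At an unadjusted p under 0.05, 4 genes of the first list were higher (0.311%) and 11 lower (0.855%), and 21 of the second were higher (1.89%) and 4 lower (0.359%), where all genes gave 1.14% and 0.817%. Limma called 0 genes of either list.

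A group mean can rest on 1 library where genes are listed at 0. In all 3 libraries at 35% RWC 368 genes were listed at 0, and 445 in all 3 at <10% RWC, with 201 in both. Of these, 2 had a mean of at least 10 FPKM at <10% RWC and 3 at 35% RWC, and none of the 5 was called.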
